A study of Mus musculus with 79 samples.

Results

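Genes that mark or specify cholinergic neurons were followed across ribosome-bound RNA from dopamine-receptor neurons of the mouse brain. The members were 6 of the 25899 genes in the expression table: Chat, Slc5a7, Lhx8, Slc17a8, Gbx1 and Zic4. They were taken by name from a list of cholinergic neuron genes, and all 6 were found. This list and the other gene lists were chosen with earlier results of these data known. Counts of listed genes beside the shares of all genes are therefore a description. The study used bacTRAP (translating ribosome affinity purification), in which a tagged ribosomal protein lets the ribosome-bound RNA of chosen cells be pulled out of a tissue. Heterozygous transgenic mice on a C57BL/6J background carried eGFP fused to ribosomal protein L10a, driven from a bacterial artificial chromosome by the Drd1a promoter (D1) or the Drd2 promoter (D2). Tissue came from the dorsal striatum, the ventral striatum (nucleus accumbens) and the prefrontal cortex, and every library pooled tissue from 3 mice, by the study's description with both sexes in each pool. The labels of 2 prefrontal libraries do not give the make-up of their pools. No treatment was named, and the age of the mice was not given in the sources used here. The 79 libraries formed 5 groups. The dorsal striatum had 15 D1 and 16 D2 libraries, the ventral striatum 15 D1 and 14 D2 libraries, and the prefrontal cortex 19 D1 libraries. D2 libraries of prefrontal cortex were not analysed here.

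Cholinergic neurons make acetylcholine from choline and acetyl-CoA, take choline back up at the terminal and load the transmitter into vesicles. In the striatum they are sparse, large, tonically active interneurons, while most striatal neurons are GABA projection neurons carrying D1 or D2 receptors. Striatal cholinergic interneurons themselves are known to carry D2 receptors, so a Drd2-driven tag does not mark projection neurons alone. Their fate depends on transcription factors of the ventral telencephalon, and many of them also carry a vesicular glutamate transporter. Because each library is bulk RNA, fewer cells of a type and less RNA per cell cannot be told apart.

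Values are CPM as the authors deposited them, the reads of a gene relative to a fixed library size. The libraries held 7.35 M to 30.8 M reads in listed genes (median 17.5 M), which was 31.0% to 40.2% of the reads behind the CPM scale, so that 1 read was worth 0.0124 to 0.0466 CPM. The tag was checked by the receptors. Drd2 averaged 1146 CPM in D2 dorsal and 656 CPM in D2 ventral libraries against 6.30 CPM in D1 dorsal, 8.97 CPM in D1 ventral and 1.08 CPM in prefrontal libraries. Drd1a averaged 225 CPM in D1 dorsal and 157 CPM in D1 ventral libraries, 15.2 and 16.8 CPM in the D2 groups and 18.8 CPM in prefrontal cortex. In each group 1 library correlated least with the rest of its group over 8132 genes, with a median r from 0.852 (D1 dorsal replicate 13) to 0.947 (D1 ventral replicate 14) where the typical library had 0.921 to 0.978. Leaving out these 5 libraries changed no count of members called in the comparisons between receptors or regions. Library names start with a letter code (EM, OdP, BdP or JAG) whose meaning was not stated. The code was spread unevenly: 11 of 15 D1 dorsal, 11 of 15 D1 ventral and 15 of 19 prefrontal libraries were EM, while 8 of 16 D2 dorsal and 5 of 14 D2 ventral libraries were OdP. Comparisons within EM libraries are therefore given beside a result wherever they end a call.

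The defining cholinergic genes were present at low levels and mostly in D2 striatum. The RefSeq promoters of Chat, Slc5a7 and Lhx8 are shown because each of these members had its 2 highest group means in D2 striatum. Each runs 5′ to 3′ on the gene's strand in GRCm38.p6, with 250 bases before the RefSeq start in lower case and the first 50 transcribed bases in capitals. The Chat promoter lies at chr14:32465860-32466159 on the minus strand, that of Slc5a7 at chr17:54298985-54299284 on the minus strand and that of Lhx8 at chr3:154330511-154330810 on the minus strand.
Chat: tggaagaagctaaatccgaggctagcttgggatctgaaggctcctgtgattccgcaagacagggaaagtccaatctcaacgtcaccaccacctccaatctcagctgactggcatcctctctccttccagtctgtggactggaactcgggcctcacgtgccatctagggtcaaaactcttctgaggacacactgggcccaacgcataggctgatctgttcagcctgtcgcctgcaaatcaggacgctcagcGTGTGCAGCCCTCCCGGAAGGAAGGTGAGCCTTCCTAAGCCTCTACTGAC
Slc5a7: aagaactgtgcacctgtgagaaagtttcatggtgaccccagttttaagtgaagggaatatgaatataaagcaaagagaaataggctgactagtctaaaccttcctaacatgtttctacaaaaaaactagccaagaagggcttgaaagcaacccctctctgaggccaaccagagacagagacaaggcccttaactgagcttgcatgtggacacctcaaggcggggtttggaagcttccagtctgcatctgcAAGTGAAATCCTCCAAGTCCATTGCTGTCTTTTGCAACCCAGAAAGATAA
Lhx8: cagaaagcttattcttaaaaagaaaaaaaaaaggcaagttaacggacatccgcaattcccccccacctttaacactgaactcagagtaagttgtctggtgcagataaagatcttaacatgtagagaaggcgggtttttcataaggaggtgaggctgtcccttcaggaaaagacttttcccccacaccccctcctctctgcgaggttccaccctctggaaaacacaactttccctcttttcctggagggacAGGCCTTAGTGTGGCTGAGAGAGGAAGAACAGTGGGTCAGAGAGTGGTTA
Promoters of 5 members were matched by symbol, and Gbx1 was not. The homeodomain core TAATTA, searched on both strands, was in none of these 3 windows, against 5.29% of all 32851 promoters of the same length. CCTGCTG, a core of ZIC binding searched on both strands, was also in none of them, against 10.5% of promoters. Among the members matched, the only hit was 1 TAATTA in the window of a second Slc17a8 start at chr10:89599766-89600065. These windows had a GC content of 55.7% for Chat, 44.7% for Slc5a7 and 47.0% for Lhx8.

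Chat, the enzyme that makes acetylcholine, was highest in D2 ventral striatum. It lies at chr14:32408203-32465989 on the minus strand (GRCm38), and the gene of the vesicular acetylcholine transporter Slc18a3, which was not analysed here, sits inside it on the same strand. Chat ran from 1.04 CPM through a median of 3.05 to 4.80 CPM in D2 ventral libraries and from 0.540 through 1.53 to 3.73 CPM in D2 dorsal libraries. In D1 libraries it ran from 0.0659 through 0.307 to 0.690 CPM in ventral and from 0 through 0.244 to 0.781 CPM in dorsal striatum, and in prefrontal cortex from 0 through 0.174 to 0.785 CPM. The D2 ventral libraries all lay above the D1 ventral ones, whereas the D2 dorsal range met the top of the D1 dorsal range. The D1 dorsal library with no Chat read (replicate 4) could have held up to 0.0842 CPM, the value of 3 reads, which covers counting error only. In order, the mean was 2.94 ± 1.09 CPM (SD, n = 14) in D2 ventral, 1.65 ± 0.841 (n = 16) in D2 dorsal, 0.323 ± 0.207 (n = 15) in D1 ventral, 0.273 ± 0.208 (n = 15) in D1 dorsal and 0.218 ± 0.203 CPM (n = 19) in prefrontal cortex. The last 3 groups lay within 1 SD of their neighbours in that order.

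Slc5a7 encodes the high-affinity choline transporter that returns choline to the cholinergic terminal (chr17:54273590-54299034, minus strand). It had the highest mean CPM of the members in the D2 groups. D2 ventral libraries ran from 2.28 through 5.12 to 6.23 CPM and D2 dorsal libraries from 0.823 through 3.29 to 9.81 CPM. D1 ventral libraries ran from 0.160 through 0.466 to 1.10 CPM, D1 dorsal from 0 through 0.266 to 0.970 CPM, and prefrontal libraries from 0 through 0.0726 to 0.332 CPM, with 6 at 0. The means were 4.67 ± 1.29 CPM in D2 ventral and 3.98 ± 2.38 CPM in D2 dorsal libraries, within 1 SD of each other. They were 0.452 ± 0.245 CPM in D1 ventral, 0.338 ± 0.233 CPM in D1 dorsal and 0.0877 ± 0.0888 CPM in prefrontal libraries. The D2 dorsal group had the largest SD: its libraries held 35 to 761 Slc5a7 reads, and the coefficient of variation was 59.8% where read counting alone gives 7.26%.

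Lhx8, the LIM homeodomain factor needed for cholinergic fate in the ventral forebrain (chr3:154306294-154330659, minus strand), ran from 2.13 through 3.77 to 5.65 CPM in D2 ventral, from 0.339 through 1.41 to 2.86 CPM in D2 dorsal, from 0.0874 through 0.607 to 1.46 CPM in D1 ventral and from 0 through 0.264 to 0.517 CPM in D1 dorsal libraries. In prefrontal cortex 17 of 19 libraries had no read, and the highest held 0.167 CPM (7 reads). A count of 0 there allows at most 0.0436 to 0.105 CPM, depending on the library. The means of 3.74 ± 1.06, 1.48 ± 0.693, 0.661 ± 0.387, 0.231 ± 0.154 and 0.0112 ± 0.0392 CPM, in the same order of groups, were each more than 1 SD from the next, while the ranges of neighbouring groups overlapped. Per kilobase of exon, Lhx8 stood above the other members in D2 ventral libraries at 1.48 ± 0.418 CPM per kb, against 0.828 ± 0.229 for Slc5a7, 0.640 ± 0.472 for Slc17a8, 0.625 ± 0.232 for Chat, 0.427 ± 0.205 for Gbx1 and 0.115 ± 0.0606 for Zic4.

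Slc17a8, the vesicular glutamate transporter VGLUT3 (chr10:89574020-89621253, minus strand), had another order of groups. VGLUT3 is known in striatal cholinergic interneurons and also in some cortical interneurons and raphe neurons. Prefrontal libraries ran from 1.79 through 3.91 to 7.58 CPM, D2 ventral libraries from 0.884 through 2.25 to 8.73 CPM and D2 dorsal libraries from 0.353 through 1.59 to 10.4 CPM. D1 ventral libraries ran from 0.907 through 1.42 to 3.41 CPM and D1 dorsal libraries from 0 through 0.315 to 1.68 CPM. Prefrontal cortex had the highest mean, 4.26 ± 1.78 CPM, followed by 3.02 ± 2.23 CPM in D2 ventral, 2.58 ± 2.47 CPM in D2 dorsal and 1.60 ± 0.701 CPM in D1 ventral libraries, each within 1 SD of the next. D1 dorsal striatum was lower, at 0.444 ± 0.422 CPM. The highest D2 library in each region was replicate 6 (10.4 CPM in dorsal and 8.73 CPM in ventral striatum), which was also the library least like its group, and the next highest D2 dorsal library held 4.48 CPM.

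Gbx1, a homeobox factor gene, and Zic4, a zinc-finger factor gene, were low throughout. Gbx1 (chr5:24502757-24527202, minus strand) averaged 1.49 ± 0.713 CPM in D2 ventral, 1.02 ± 0.479 CPM in D1 ventral, 0.767 ± 0.421 CPM in D1 dorsal and 0.632 ± 0.342 CPM in D2 dorsal libraries, each within 1 SD of the next. In prefrontal cortex it averaged 0.0622 ± 0.0812 CPM, and 9 of 19 libraries had no read. Zic4 (chr9:91362413-91389348, plus strand) averaged 1.19 ± 0.626 CPM in D2 ventral, 0.828 ± 0.398 CPM in D1 ventral, 0.775 ± 0.536 CPM in D2 dorsal, 0.570 ± 0.446 CPM in D1 dorsal and 0.176 ± 0.185 CPM in prefrontal libraries. The Zic4 locus overlaps Zic1 on the opposite strand over 3398 bases, and whether counting used strand was not given in the sources used here, so reads of the overlap cannot be told apart. Zic4 differed with the library name code inside D1 dorsal striatum, where the 3 BdP libraries held 0.0323 to 0.0812 CPM and the JAG library 0.0454 CPM, all below the 11 EM libraries at 0.219 to 1.32 CPM. In D1 ventral striatum the OdP library held 0.0349 CPM and the others 0.420 to 1.69 CPM. For Gbx1 in D1 dorsal striatum the BdP libraries, at 1.32 to 1.60 CPM, lay above the EM libraries at 0.262 to 1.05 CPM, and the JAG library, at 0.386 CPM, lay within the EM range.

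**Figure D1:**
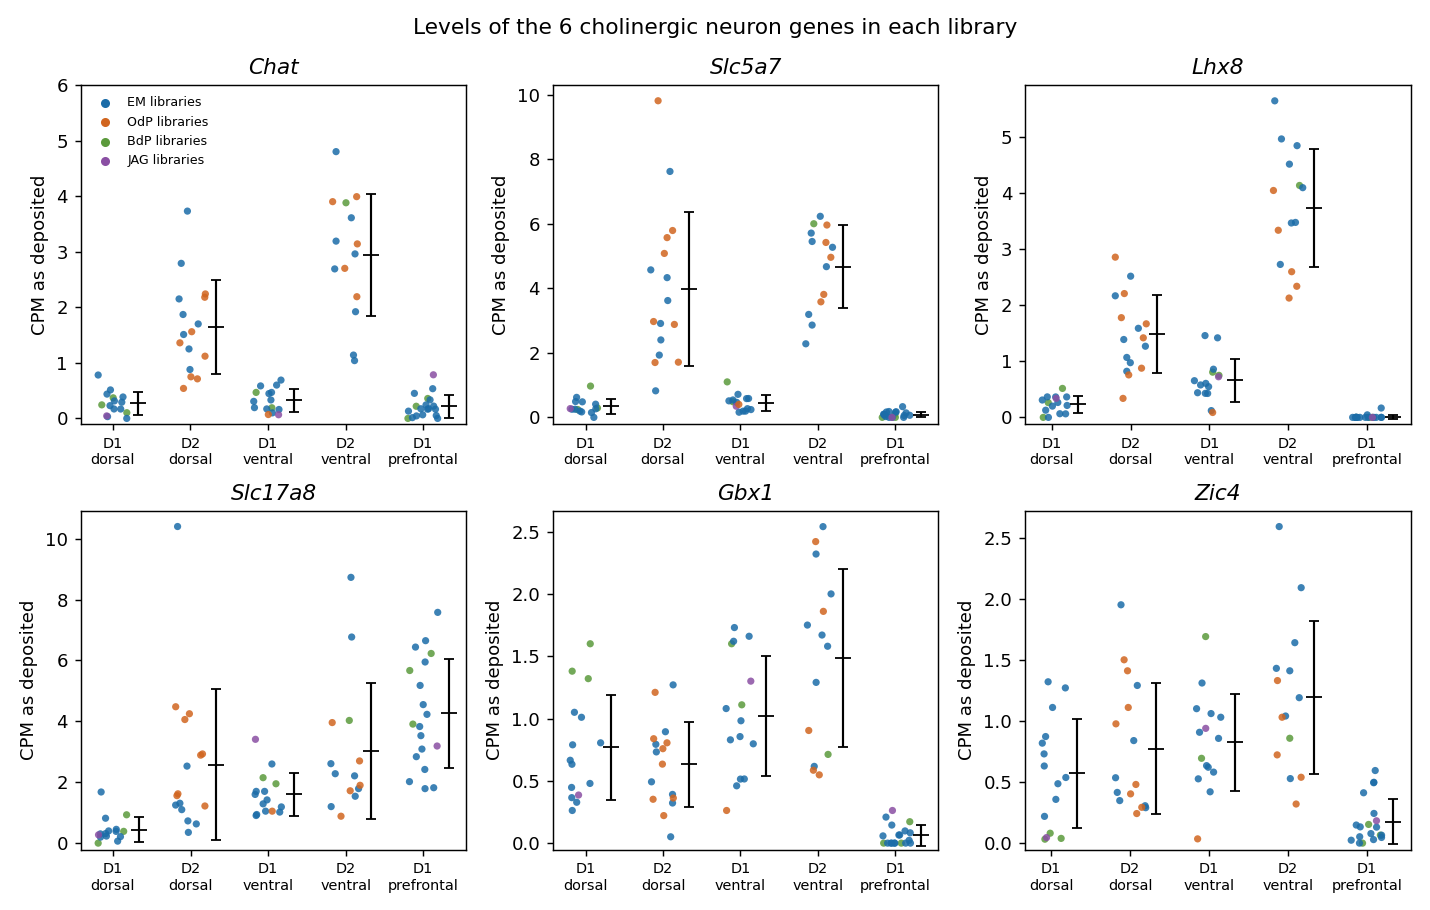
Level of each of the 6 genes in every library of the 5 groups, with expression in CPM on the vertical axis, each point a library coloured by its name code and bars showing the group mean and SD. Chat, Slc5a7 and Lhx8 stand highest in the D2 groups, Slc17a8 has its highest mean in prefrontal cortex (4.26 CPM), and Gbx1 and Zic4 are lowest there.

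The first comparison asked how D1 and D2 neurons of the dorsal striatum differed. Of the 6 members, 4 were lower in D1 than in D2 libraries and none was higher: Chat, Slc5a7, Lhx8 and Slc17a8. This count uses every gene with a read in any library, since most members fall under the usual filter, and differences are of log2(CPM + 0.5), so that those of low genes come out smaller than their true fold. A gene was called where its adjusted p in limma was under 0.05. Among all 19281 genes tested 17.2% were called, 7.36% lower in D1, and the median difference was 0.01 against -1.40 over the members. Since the members were chosen with earlier results known, this contrast is not an independent test. With the filter of 1 CPM only Slc5a7 was tested and it was called, where 25.9% of 11090 genes were called. Among EM libraries alone Slc5a7 failed the filter, and it was called there without the filter. The Slc5a7 difference, D1 minus D2, was -2.28 (SE 0.22, limma adjusted p = 1.69e-09), an 11.8-fold ratio of mean CPM, and 15 of 16 D2 libraries lay above every D1 library. Lhx8 differed by -1.38 (SE 0.16, limma adjusted p = 4.83e-08), with 15 of 16 D2 libraries above every D1 library. Chat differed by -1.42 (SE 0.17, limma adjusted p = 1.38e-07), with 13 of 16 above. The groups overlapped more for Slc17a8 (-1.49, SE 0.27, limma adjusted p = 1.73e-04), with 7 of 16 above, and among EM libraries alone its difference of -1.11 missed the threshold (limma adjusted p = 0.0699), so that 3 members were called there. Gbx1 (0.16, SE 0.16) and Zic4 (-0.27, SE 0.21) were not called.

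In the ventral striatum the same comparison gave Chat, Slc5a7, Lhx8 and Slc17a8 as lower in D1, 4 of 6 members. All 6 passed the filter here, and 47.7% of 11410 genes were called, 23.6% lower in D1. Without the filter 4 members were called as well, against 29.9% of genes called and 14.5% lower in D1. Slc5a7 differed by -2.43 (SE 0.15, limma adjusted p = 1.48e-15), a 10.3-fold ratio of mean CPM. Chat differed by -2.02 (SE 0.17, limma adjusted p = 1.12e-11), a 9.09-fold ratio. Lhx8 differed by -1.90 (SE 0.16, limma adjusted p = 1.86e-11), a 5.66-fold ratio. For these 3 genes all 14 D2 ventral libraries lay above every D1 ventral library. Slc17a8 differed by only -0.60 (SE 0.22, limma adjusted p = 0.0212), with 4 of 14 D2 libraries above every D1 library. Its call was lost with the share of reads in listed genes as a covariate (-0.12, limma adjusted p = 0.840) and without the filter after scaling to reads in listed genes (-0.51, limma adjusted p = 0.0741). That share ran from 32.8% to 37.5% over the D1 ventral and from 34.7% to 39.8% over the D2 ventral libraries. Gbx1 (-0.36, SE 0.19, limma adjusted p = 0.115) and Zic4 (-0.33, SE 0.19, limma adjusted p = 0.141) were not called over all libraries without a term for the name code. With the name code as a covariate both were called as lower in D1, at -0.51 (limma adjusted p = 0.0338) and -0.55 (limma adjusted p = 0.0112), making 6 of 6 members. Without the filter that covariate left Gbx1 uncalled (limma adjusted p = 0.0607). Among EM libraries alone both were also called, at -0.57 (limma adjusted p = 0.0265 with the filter and 0.0468 without it) and -0.55 (limma adjusted p = 0.0202 and 0.0304).

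**Figure D2:**
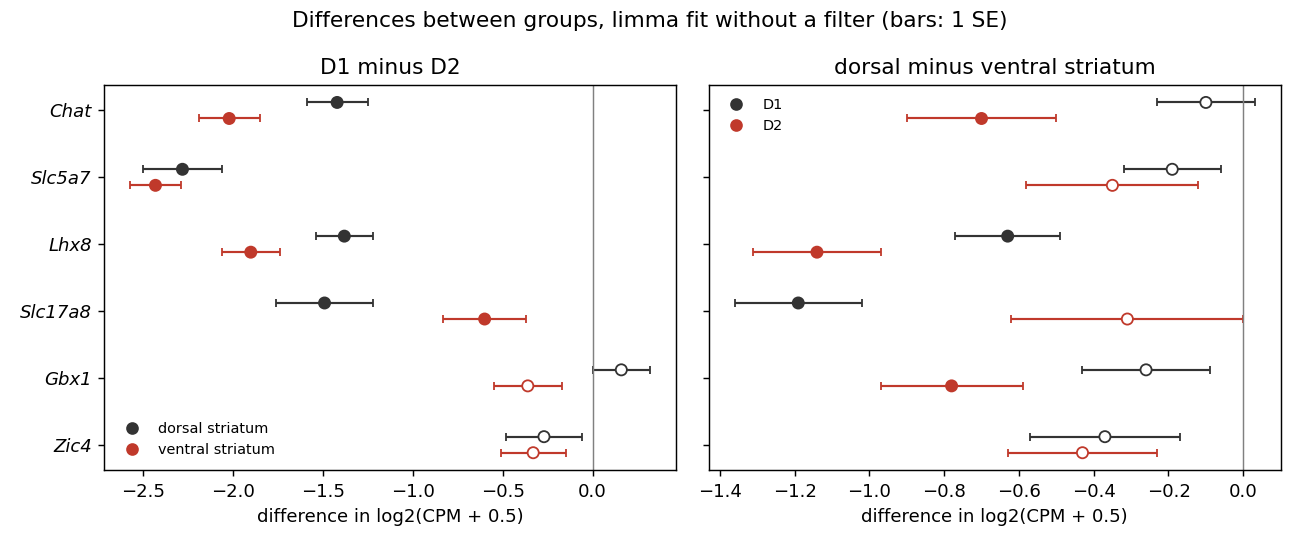
Difference of each gene on the log2(CPM + 0.5) scale, for D1 minus D2 (left) and dorsal minus ventral striatum (right). Points are limma estimates, bars 1 SE, and filled points have an adjusted p under 0.05. Chat, Slc5a7 and Lhx8 lie at -1.38 or lower in both striatal regions between receptors, and Lhx8 is called in both regional comparisons.

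Among other genes of acetylcholine handling, 2 of 6 measured were lower in D1 than in D2 in dorsal striatum and 3 in ventral striatum without the filter, none was higher, and the list's median difference was -0.47 and -0.30. Over all genes tested without the filter, 7.36% were lower in D1 in dorsal and 14.5% in ventral striatum. Slc10a4, a vesicle protein of cholinergic and monoamine neurons, averaged 0.146 CPM in D1 and 2.20 CPM in D2 dorsal libraries (-1.97, SE 0.21, limma adjusted p = 2.01e-08). In ventral libraries it averaged 0.236 and 3.24 CPM (-2.28, SE 0.15, limma adjusted p = 8.47e-13), and all 14 D2 libraries lay above every D1 library. The choline transporter Slc44a1, which many cell types carry, was lower in D1 by a smaller margin (-0.59 in dorsal and -0.98 in ventral striatum), and Bche was lower in ventral striatum (-0.43). Prima1, the membrane anchor of acetylcholinesterase, averaged 4.57 CPM in D1 and 6.77 CPM in D2 dorsal libraries. It differed by -0.61, which was called with the filter (limma adjusted p = 0.0422) and not without it (limma adjusted p = 0.0721). Ache, the enzyme that breaks acetylcholine down, was not called in either region, at -0.35 (limma adjusted p = 0.292) in dorsal and 0.26 (limma adjusted p = 0.235) in ventral striatum. Among 4 receptors known on cholinergic neurons, 2 were lower in D1 dorsal libraries (Tacr1 and Ngfr) and 3 in D1 ventral libraries (these and Drd5), against the same 7.36% and 14.5% of all genes. The substance P receptor Tacr1 averaged 1.47 CPM in D1 and 5.51 CPM in D2 dorsal libraries (-1.66, SE 0.18, limma adjusted p = 3.66e-08), with all 16 D2 libraries above every D1 library, and it averaged 1.81 and 5.27 CPM in ventral libraries (-1.26, limma adjusted p = 5.89e-08).

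Of 8 measured transcription factors related to the members, Nkx2-1, a factor of the medial ganglionic eminence where many of these interneurons arise, was lower in D1 dorsal libraries (0.199 against 0.647 CPM, log2 difference -0.65, limma adjusted p = 0.00172) and lower in D1 ventral libraries (0.308 against 1.16 CPM, limma adjusted p = 3.25e-07). Isl1 was higher in D1 by 3.14 in dorsal (11.9 against 0.999 CPM, limma adjusted p = 1.89e-15) and by 2.53 in ventral striatum (limma adjusted p = 5.36e-14). Isl1 is needed by cholinergic interneurons and is also a factor of D1 projection neurons. Gbx2 (-0.65) and Zic1 (-0.76) were lower in D1 ventral libraries. Lhx6 differed there by -0.52, which was called with the filter (limma adjusted p = 0.0399) and not without it (limma adjusted p = 0.0760). Without the filter the counts were 1 higher and 1 lower of 8 in dorsal striatum and 1 higher and 3 lower in ventral striatum, with medians of -0.03 and -0.36. Of all genes 17.2% were called in dorsal and 29.9% in ventral striatum, so nothing is read from these counts about the factors as a list.

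Some markers of other cells also differed between the receptor groups. Of 4 cortical glutamatergic neuron markers, all 4 were higher in D1 than in D2 libraries in both striatal regions. Their summed level was 23.9 to 107 CPM in D1 dorsal, 0.928 to 27.9 CPM in D2 dorsal, 13.7 to 92.1 CPM in D1 ventral and 2.79 to 66.4 CPM in D2 ventral libraries. Of 7 GABA interneuron markers, 5 were higher in D1 dorsal libraries (summed level 20.2 to 60.0 against 7.06 to 29.0 CPM) and 2 in D1 ventral libraries (24.8 to 46.9 against 23.3 to 43.7 CPM). Of 3 microglial markers, 2 were lower in D1 ventral libraries, whose summed level was 0 to 0.526 CPM against 0.297 to 3.48 CPM in D2. No marker of these 3 lists was at 0 in every library of a striatal group. Of all genes tested without the filter, 17.2% were called in dorsal and 29.9% in ventral striatum. The 2 of 7 GABA interneuron markers in ventral striatum are near that share, and nothing is read from them. The 4 members that were lower in D1 thus moved opposite to the cortical markers. In dorsal striatum they also moved opposite to the GABA interneuron markers that were called. The part of other cells in the result was not tested.

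Dorsal and ventral striatum were then compared within each receptor. The main regional fits took libraries as unpaired, although neighbouring D1 names lean towards a pairing, as described in the last paragraph. In D1 neurons 2 of 6 members were lower in dorsal striatum, where 22.8% of 19546 genes were called. Slc17a8 differed by -1.19 dorsal minus ventral (SE 0.17, limma adjusted p = 3.89e-06, a 3.60-fold ratio of mean CPM), and 6 of 15 ventral libraries lay above every dorsal library. Lhx8 differed by -0.63 (SE 0.14, limma adjusted p = 0.00150, a 2.86-fold ratio), with 10 of 15 above. Chat (-0.10), Slc5a7 (-0.19), Gbx1 (-0.26) and Zic4 (-0.37) were not called. No member passed the filter of 1 CPM in this comparison, in which 34.6% of genes were called.

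In D2 neurons 3 of 6 members were lower in dorsal striatum, against 18.6% of 19383 genes called. Lhx8 differed by -1.14 (SE 0.17, limma adjusted p = 9.23e-06), a 2.53-fold ratio of mean CPM, and 10 of 14 ventral libraries lay above every dorsal library. Gbx1 differed by -0.78 (SE 0.19, limma adjusted p = 0.00258), a 2.35-fold ratio, with 9 of 14 above. Chat differed by -0.70 (SE 0.20, limma adjusted p = 0.0118), a 1.79-fold ratio, with 4 of 14 above. Among EM libraries alone the Chat difference was -0.32 and was not called (limma adjusted p = 0.538). Slc5a7 (-0.35, SE 0.23), Slc17a8 (-0.31, SE 0.31) and Zic4 (-0.43, SE 0.20) were not called, and for Slc5a7 and Slc17a8 no ventral library lay above the dorsal range. With the filter 5 members were tested and Chat and Lhx8 were called, where 28.5% of genes were called. Slc5a7 was called as well with the filter when neighbouring library names served as a replicate block, as described in the last paragraph. Of the 8 related transcription factors 6 were lower in D2 dorsal than in D2 ventral striatum, among them Lhx6 (1.52 against 5.65 CPM, log2 difference -1.58, limma adjusted p = 4.18e-05), Zic1 (4.59 against 8.19 CPM) and Nkx2-1 (0.647 against 1.16 CPM), with none higher. None of the 4 receptors of cholinergic neurons was called in this comparison. With the filter, the median difference of all genes was -0.12 in both regional comparisons and lay within 0.01 of 0 after median-ratio scaling, under which 2 members in D1 and 3 in D2 were called without the filter. In D2, 4 of 7 GABA interneuron markers were lower in dorsal striatum (summed level 7.06 to 29.0 against 23.3 to 43.7 CPM), and the 4 projection neuron markers were higher (1845 to 3567 against 1153 to 2021 CPM). The part of these in the result was not tested.

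Whether the receptor difference itself depended on region was tested as an interaction over the 4 striatal groups. None of the 6 members was called by limma, where 2.64% of 11873 genes were called, and none by edgeR. At an unadjusted p under 0.05 limma gave 4 members and edgeR 1. The interaction, D1 minus D2 in dorsal less that in ventral striatum, was 0.60 for Chat (SE 0.24, limma adjusted p = 0.195), 0.52 for Lhx8 (SE 0.23, limma adjusted p = 0.256) and 0.52 for Gbx1 (SE 0.25, limma adjusted p = 0.320). It was -0.89 for Slc17a8 (SE 0.35, limma adjusted p = 0.192), 0.16 for Slc5a7 (SE 0.26) and 0.06 for Zic4 (SE 0.28). The direction turned for Lhx8 (-0.20) and Slc5a7 (-0.22) by edgeR and for Zic4 (-0.06) with a pseudocount of 0.1. The different sizes of the receptor difference in the 2 regions were thus not resolved for any member.

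D1 prefrontal cortex differed from D1 striatum in 5 of 6 members, and the same 19 prefrontal libraries serve both comparisons. Against dorsal striatum 1 member was higher and 4 were lower, where 41.9% of 19963 genes were called. Slc17a8 was higher in cortex by 2.33 (SE 0.18, limma adjusted p = 1.94e-14), a 9.59-fold ratio of mean CPM, and all 19 prefrontal libraries lay above every dorsal one. Gbx1 differed by -1.11 (limma adjusted p = 3.06e-10), a 12.3-fold ratio, and Zic4 by -0.58 (limma adjusted p = 0.00458). Slc5a7 (-0.48, limma adjusted p = 9.79e-05) and Lhx8 (-0.49, limma adjusted p = 1.07e-06) were lower as well, from striatal means that were already under 0.5 CPM, whereas Chat was not called (-0.11, limma adjusted p = 0.524). With the filter only Slc17a8 was tested, and 54.8% of genes were called.

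Against ventral striatum Slc17a8 was again higher in prefrontal cortex, by 1.14 (SE 0.17, limma adjusted p = 1.46e-07), a 2.66-fold ratio, with 12 of 19 prefrontal libraries above every ventral one. Gbx1 (-1.38, limma adjusted p = 2.58e-12), Lhx8 (-1.11, limma adjusted p = 8.43e-11), Zic4 (-0.95, limma adjusted p = 4.78e-07) and Slc5a7 (-0.67, limma adjusted p = 1.81e-07) were lower, where 47.0% of 20113 genes were called. For Gbx1 all 15 ventral libraries lay above every prefrontal one. Chat was not called over all libraries (-0.20, limma adjusted p = 0.183), but was called among EM libraries alone (-0.34, limma adjusted p = 0.0242). With the filter only Slc17a8 was tested, and 62.8% of genes were called. Beside these differences, the summed cortical glutamatergic markers were 448 to 772 CPM and the summed GABA interneuron markers 97.5 to 261 CPM in prefrontal libraries, and all 4 projection neuron markers were lower there, at 42.4 to 330.3 CPM. All 3 astrocyte markers were higher in prefrontal libraries than in either striatal region, with a summed level of 6.68 to 51.7 CPM against 2.00 to 13.7 CPM in D1 dorsal and 1.32 to 7.99 CPM in D1 ventral libraries. Of 3 microglial markers 2 were higher in prefrontal cortex in both comparisons without the filter, and their summed level was 0.0163 to 1.57 CPM. The part of these cells in the result was not tested.

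The letter code of the library name was compared where a group held enough of 2 codes. In D2 dorsal striatum none of the 6 members differed between EM and OdP libraries by limma, at an unadjusted p under 0.05 or by edgeR, where 16.5% of genes were called. Without the library least like its group (replicate 6), 1 member was called: Slc17a8 was lower in EM than in OdP libraries by limma (-1.05, adjusted p = 0.0197). In D2 ventral striatum none was called by limma or edgeR, where 11.5% of genes were called, and 2 had an unadjusted p under 0.05 in limma, Lhx8 (0.48) and Zic4 (0.62).

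Whether the members varied together between libraries of the same group was asked by correlating log2(CPM + 0.5) across libraries for every pair, in each group apart. A member entered a group where its median was at least 0.25 CPM, which gave 55 pairs in 4 groups. In prefrontal cortex Slc17a8 alone entered, so no pair could be formed. Of the 55 pairs 6 had a permutation p under 0.05 and 3 had an adjusted p under 0.05, and none did by Spearman's rho. The median r over pairs was 0.276 in D1 ventral (14 of 15 pairs above 0), 0.259 in D2 ventral (12 of 15), 0.189 in D2 dorsal (10 of 15) and -0.0493 in D1 dorsal striatum (4 of 10). Over all gene pairs the median r was 0.01, 0.04, 0.01 and 0.02 in the same order, with 51.3%, 53.6%, 50.8% and 51.6% of pairs above 0. The pairs share genes and are not independent, and these counts were not tested. Among the 11 EM libraries of D1 ventral striatum several pairs fell below 0, such as Gbx1 with Zic4 (-0.70) and Slc17a8 with Gbx1 (-0.40). Others stayed above 0, such as Chat with Gbx1 (0.63) and Slc5a7 with Gbx1 (0.60). Without the OdP library of that group (replicate 15) alone, r of Gbx1 with Zic4 went from 0.20 to -0.31. Differences in r between groups were not tested.

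In D2 dorsal striatum Slc5a7 rose and fell with Slc17a8 and with Lhx8. The r of Slc5a7 with Slc17a8 was 0.77 over 16 libraries (permutation p = 5.30e-04, adjusted p = 0.0291) and rho was 0.72 (adjusted permutation p = 0.0621). It was 0.82 among 8 EM and 0.78 among 8 OdP libraries, and 0.68 (permutation p = 0.00596) without the 2 libraries whose Slc5a7 level lay farthest from the median. In these 3 subsets the adjusted permutation p was 0.287, 0.175 and 0.143, so the call was lost in each. Of 10935 genes 0.0366% had as high an r with Slc5a7. The libraries show the pattern: replicate 1 held 0.823 CPM of Slc5a7 and 0.353 CPM of Slc17a8, both the lowest, while replicate 12 held 9.81 and 4.48 CPM and replicate 6 held 7.62 and 10.4 CPM. The r of Slc5a7 with Lhx8 was 0.72 (permutation p = 0.00181, adjusted p = 0.0400) and rho was 0.73 (adjusted permutation p = 0.0621). It was 0.63 without the 2 farthest libraries, 0.86 among OdP libraries and 0.59 among EM libraries (exact permutation p = 0.118, n = 8). This call was lost in each of these 3 subsets as well, with an adjusted permutation p of 0.188 without the 2 farthest libraries and 0.365 among EM libraries. After scaling to reads in listed genes its adjusted permutation p was 0.0550. The r of Chat with Slc5a7 in this group was 0.18, which did not pass the threshold.

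In D2 ventral striatum Chat and Slc5a7 had an r of 0.75 over 14 libraries (permutation p = 0.00218, adjusted p = 0.0400), and rho was 0.60 (adjusted permutation p = 0.354). The relation rested on 2 EM libraries: replicate 6 with 1.04 CPM of Chat and 2.86 CPM of Slc5a7, and replicate 2 with 1.14 and 2.28 CPM. Without them r was 0.38 (permutation p = 0.219). Replicate 6 is also the library least like its group, and without it alone r was 0.69 (adjusted permutation p = 0.142). Among EM libraries r was 0.69 (exact permutation p = 0.0604, n = 8). In D1 ventral striatum the highest pairs were Lhx8 with Gbx1 (r = 0.62, adjusted permutation p = 0.196), Slc5a7 with Gbx1 (0.55) and Chat with Lhx8 (0.53), none past the threshold after adjustment. In D1 dorsal striatum no pair had a permutation p under 0.05.

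**Figure D3:**
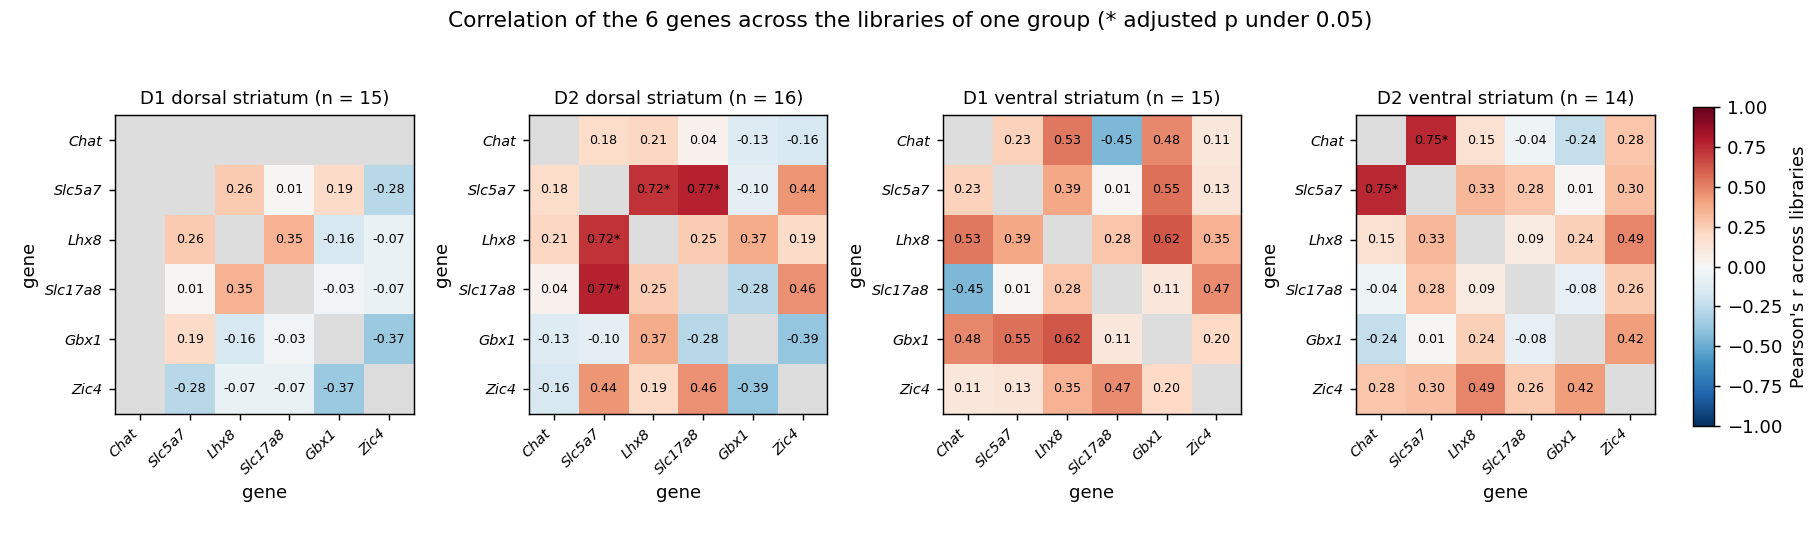
Pearson r of each pair of members across the libraries of each group, with the colour and the printed value giving r on log2(CPM + 0.5) values and grey where no r was computed. The 3 pairs past the adjusted threshold are Slc5a7 with Slc17a8 (0.77) and with Lhx8 (0.72) in D2 dorsal striatum and Chat with Slc5a7 (0.75) in D2 ventral striatum.

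**Figure D4:**
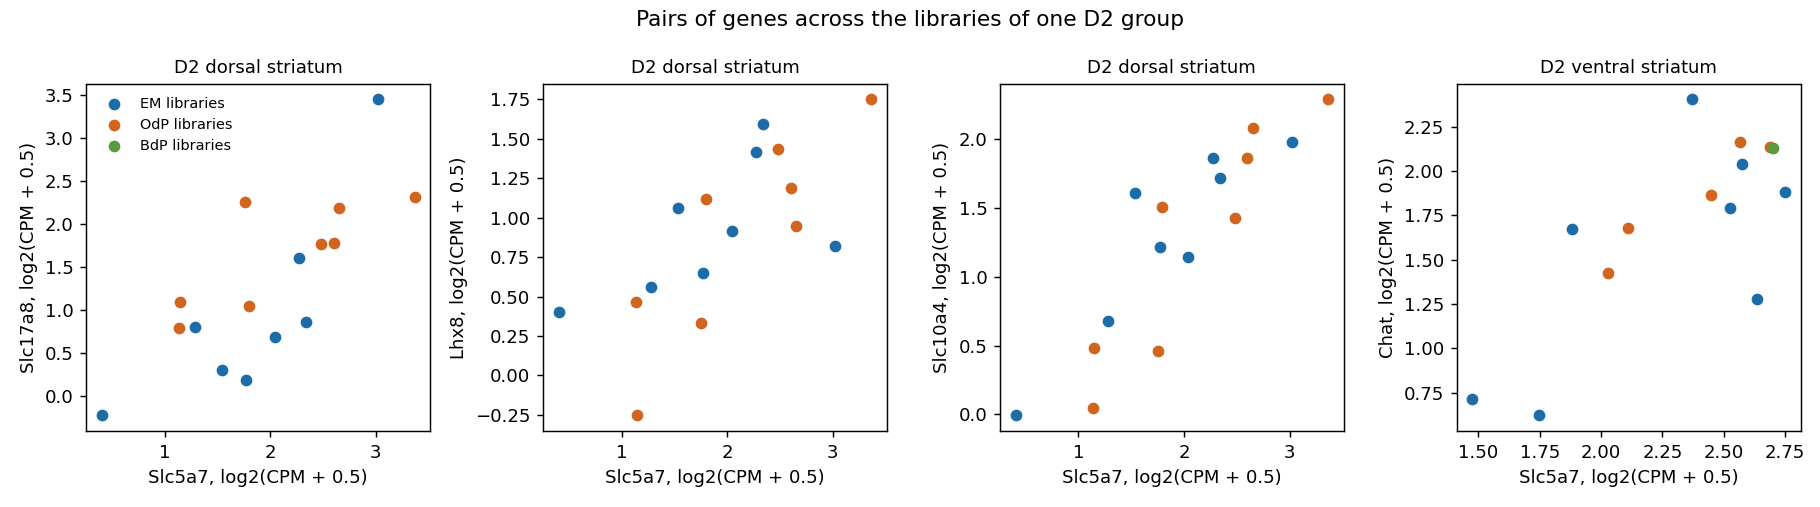
Library values of the 3 pairs of members past the adjusted threshold, and of Slc5a7 with Slc10a4, in log2(CPM + 0.5) on both axes, with each point a library coloured by its name code. In D2 ventral striatum 2 EM libraries with low Chat and low Slc5a7 lie apart, and without them r falls to 0.38.

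Genes outside the members that followed them were looked up by a fixed rule, the 5 highest r among genes with at least 1 CPM in enough libraries. In D2 dorsal striatum the genes most like Slc5a7 were Slc10a4 (r = 0.89), Glra2 (0.89), Spg20 (0.79), Tnfaip8l3 (0.78) and Rhobtb3 (0.77), over 16 libraries. Those most like Chat were Tmem192 (0.85), Hist1h1c (0.81), Them4 (0.81), Sema4a (0.80) and Ap4b1 (0.77). In D2 ventral striatum the genes most like Slc5a7 were Hexim1 (0.83), Plce1 (0.78), Ric8b (0.77), Fzd1 (0.76) and Ryr3 (0.76), and those most like Chat were Sgms1 (0.82), A330021E22Rik (0.81), Dock10 (0.81), Nono (0.78) and A730046J19Rik (0.78), over 14 libraries. In D1 ventral striatum Mtap9 (0.79) led for Slc5a7 and Epor (0.79) for Chat, over 15 libraries. These are the highest of 10935 genes in D2 dorsal and 11319 in D2 ventral striatum and are given as a description.

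Among 78 pairs of members with the other cholinergic genes, Slc5a7 with Slc10a4 in D2 dorsal striatum had an adjusted permutation p of 7.80e-04 (r = 0.89, rho = 0.89). The r was 0.83 without the 2 farthest libraries, 0.91 among EM and 0.92 among OdP libraries. Lhx8 followed Slc10a4 there too (r = 0.79, adjusted permutation p = 0.0109), with 0.75 among EM and 0.81 among OdP libraries and 0.76 without the 2 farthest libraries. For Chat with Slc10a4 r was 0.19 (adjusted permutation p = 0.819). In D2 ventral striatum the r of Slc5a7 with Slc10a4 was 0.67 (adjusted permutation p = 0.121).

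In prefrontal cortex the level of Slc17a8 moved with a property of the library. Its log2 level correlated with the share of reads that fell in listed genes (31.0% to 39.7%) at r = 0.90 and rho = 0.87 over 19 libraries (permutation p = 1e-05, the smallest the permutations can give; adjusted p = 0.00288 over 288 relations with library properties and marker sums). The r was 0.86 without the 2 farthest libraries and 0.91 among 15 EM libraries. Among the 14 libraries with a share above 33% it was 0.75 (permutation p = 0.00261), and after scaling to reads in listed genes it was 0.85. This relation was picked for these closer looks, the 33% cut among them, after the 288 relations had been seen. Of 11552 genes 0.511% had as high an r with the share, and the median r of all genes was 0.19. The r of Slc17a8 with the summed GABA interneuron markers in the same libraries was 0.73 (adjusted permutation p = 0.0734), and with the summed astrocyte markers it was 0.51 (adjusted permutation p = 0.351). In D2 ventral libraries the r of Slc17a8 with the share was 0.52, which did not pass the threshold (adjusted permutation p = 0.512, n = 14), and rho was 0.78 (permutation p = 0.00153, not adjusted). There r was 0.87 without the 2 farthest libraries and 0.64 among 8 EM libraries. In D2 dorsal, D1 ventral and D1 dorsal libraries r was 0.41, 0.36 and -0.19, none of which passed the threshold. With the share as a covariate Slc17a8 was still higher in prefrontal cortex than in D1 striatum, by 2.33 against dorsal (limma adjusted p = 1.94e-15) and by 1.10 against ventral libraries (limma adjusted p = 1.50e-10).

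**Figure D5:**
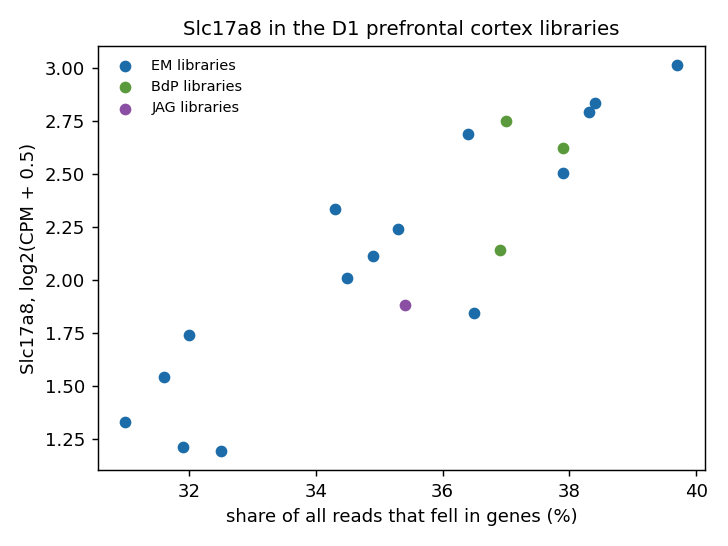
Slc17a8 level in the 19 prefrontal libraries, in log2(CPM + 0.5), against the percent of reads in listed genes, with each point a library coloured by its name code. The level rises with the share over its range of 31.0% to 39.7% (r = 0.90).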

How the data were processed

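Ribosome-bound polyadenylated RNA of 79 libraries was sequenced. Expression was deposited by the authors as CPM for 25899 genes, named by symbol, of which 5196 were 0 in every library. Per the submitters' processing notes, reads passed FastQC, Trim Galore 0.4.2 and cutadapt 1.9.1 and were aligned with HISAT2 to GRCm38. The counting tool and its use of strand were not given in the sources used here. Divided by the value of 1 read, 100.0% of the deposited CPM came out whole (tolerance 0.01 read), so whole reads were recovered for an edgeR alternative. The CPM scale also counts reads outside the listed genes, 31.0% to 40.2% of reads being in them.

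Groups came from receptor and region labels. Replicate numbers only name libraries. No label says whether pools of a group share litters or days, so p-values measure the spread between these pools. Differences were tested with limma 3.58.1 (trend) in R 4.3.3 on log2(CPM + 0.5), over genes with at least 1 CPM in as many libraries as the smaller group holds. They were also tested over all genes with a read in any library. All tests were two-sided and p-values were adjusted over all genes tested (Benjamini-Hochberg). Correlations used 100000 permutations of libraries (exact in subsets of 8 libraries). They were adjusted over the pairs of each setting, 55 in the main setting and 15 among OdP libraries alone. Alternatives were a pseudocount of 0.1, scaling to reads in listed genes, median-ratio scaling, edgeR 4.0.16 (quasi-likelihood, TMM), EM libraries alone, a covariate for the name code or the percent of reads in listed genes, leaving libraries out, and neighbouring library names as a replicate block. Some of these, among them the block and the combinations with no filter, were added after seeing the data. The fits were tested on simulated data. Named genes are the members, the listed pathway and marker genes, and for Chat and Slc5a7 the 5 genes of highest r. Coordinates are from GENCODE M21 and promoters from RefSeq. One listed gene is not reported here. The members and lists were chosen with earlier results of these data known.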

Additional observations from a re-analysis of the deposited data

How the results depend on the processing

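Across 23 called differences of members, 294 of 302 alternatives kept the call, 8 lost it and 0 reversed it. For Slc17a8 the call was lost between D1 and D2 in dorsal striatum among EM libraries alone without the filter (-1.11), and in ventral striatum with the share covariate, with and without the filter (-0.12 in both), and after scaling to reads in listed genes without it (-0.51). For Chat between dorsal and ventral D2 libraries it was lost among EM libraries alone, with and without the filter (-0.32 in both), and without it among the libraries in runs of names described below, with and without the block (-0.56 in both). The filter decided how many members could be called. Without it, 4 members were called for D1 against D2 in dorsal striatum, 2 for dorsal against ventral striatum in D1, and 5 in each prefrontal comparison, against 1, 0, 1 and 1 with it. With the filter, 0 were called in dorsal striatum among EM libraries alone, since Slc5a7 then failed the filter (-2.19 without it). Without the library least like its group, 1 member was called between EM and OdP libraries of D2 dorsal striatum.

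Over all genes, calls in the dorsal receptor comparison went from 2871 to 1389 among EM libraries and to 1658 with the name code as a covariate. In the ventral comparison they went from 5443 to 1218 with the share covariate, and in the interaction from 313 to 480 with the name code. Scaling moved the split of calls. Scaled to reads in listed genes, higher and lower calls in D1 were 1711 and 1153 in dorsal (1424 and 1447 as deposited) and 3702 and 1898 in ventral striatum (2751 and 2692), and 191 and 119 in the interaction (229 and 84). By median-ratio scaling they were 1679 and 1607 for dorsal against ventral in D1 (1144 and 2774) and 1353 and 1373 in D2 (887 and 2302). EM against OdP gave 1558 and 1910 in dorsal (1973 and 1333) and 1209 and 1409 in ventral D2 libraries (1884 and 684). By edgeR they were 3119 and 3472 for prefrontal cortex against dorsal striatum (3766 and 2622). The median of all genes in the ventral receptor comparison moved from 0.02 to 0.13 when scaled to reads in listed genes.

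Some differences changed sign, none of them called. Zic4 between D1 and D2 in dorsal striatum was 0.08 among EM libraries and with the name code as a covariate (-0.27 over all). In the interaction, Slc5a7 was -0.22 and Lhx8 -0.20 by edgeR, and Zic4 -0.06 with a pseudocount of 0.1. Between EM and OdP libraries of D2 dorsal striatum, Lhx8 was -0.00 by median-ratio scaling and, by edgeR, -0.05 with and -0.08 without the filter, Gbx1 0.07 without the library least like its group and Zic4 0.04 with the share covariate. The cause was not tested.

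Of the 2 pairs called in D2 dorsal striatum, 1 was called after scaling to reads in listed genes and 0 among EM libraries, among OdP libraries or without the 2 farthest libraries. The 1 pair of D2 ventral striatum fell to 0 after scaling to reads in listed genes, among EM libraries, without the 2 farthest libraries, on deviations from the name code mean and without the library least like its group. Leaving out each library in turn, r ranged from 0.71 to 0.82 for Slc5a7 with Slc17a8, from 0.64 to 0.78 for Slc5a7 with Lhx8 and from 0.64 to 0.85 for Chat with Slc5a7. Labels pair no libraries, but names run in sequence over regions. Neighbouring names of 1 code, receptor and pool make-up were tried as a replicate block after seeing the data. The deviations of such neighbours from the mean of their group and name code correlated at a median of 0.19 (0.04 to 0.45, 11 pairs) for dorsal and ventral D1, 0.07 (-0.53 to 0.53, 13 pairs) for dorsal and ventral D2, 0.13 (-0.20 to 0.45, 11 pairs) for prefrontal and dorsal and 0.11 (-0.00 to 0.37, 11 pairs) for prefrontal and ventral libraries. With other runs medians were -0.02, 0.02, 0.02 and -0.01, and 5, 1, 4 and 3 first-region libraries matched their own neighbour best. In D1 this leans towards a pairing. Over these libraries, genes called with the block and without it were 3930 and 3565, 3408 and 2667, 5488 and 5455, and 7227 and 7112. Without the filter the block changed no count of members called (2, 2, 5 and 5). Slc5a7 between dorsal and ventral D2 libraries was -0.41 either way, with a limma adjusted p of 0.0555 with the block and 0.244 without it. With the filter it was called with the block (limma adjusted p = 0.0371) and not without it (0.169). This made 3 members called, not 2. The other counts stayed at 0, 1 and 1. Members near 1 CPM or below rest on few reads: in D1 dorsal libraries counting alone gives Chat a coefficient of variation of 28.6% of the 76.2% measured.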
